A study of Mus musculus with 163 samples.

Results

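The data concern 10 mouse genes, Me3, Slc45a3, Zfp423, Trim16, Synj2, Pxdc1, Slc47a2, Ppp1r1a, Reep6 and Akr1b3, out of 55291 genes in the count table. They were selected on a strong fall in hair cells that lack Rbm24, among genes that are not used as hair cell markers, so the genotype differences given here for the 10 genes are a description of that choice and carry no test. Single hair cells were picked by hand from mouse cochleae at postnatal day 7 (P7) and sequenced as full-length cDNA with a Smart-Seq kit. The table holds 163 cells in 4 groups, of which 43 are controls (Ctrl OHC) and 56 mutants (Exp OHC) among outer hair cells, and 38 are controls (Ctrl IHC) and 26 mutants (Exp IHC) among inner hair cells. Both genotypes carried a tdTomato reporter in Atoh1, a gene active in hair cells, by which the cells were picked. Controls were Atoh1P2A-Tdtomato/+ and mutants were Atoh1P2A-Cre/P2A-Tdtomato; Rbm24flox/flox, so that Cre and a second modified Atoh1 allele came together with the loss of Rbm24 and cannot be told apart from it. The labels name no animal, so each group is 1 sample, cells are not replicates, and no p-value was computed. How a picked cell was called inner or outer is not stated in the sources used here.

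Rbm24 encodes an RNA-binding protein that regulates alternative splicing and the stability of messenger RNA in muscle and in hair cells, and it is known to bind GU-rich RNA. Outer hair cells amplify sound by changing length through the motor protein prestin (Slc26a5) and hold the calcium buffer oncomodulin (Ocm), while inner hair cells pass the signal to the auditory nerve. The 10 genes share no single pathway. They encode metabolic enzymes (Me3 and Akr1b3), membrane transporters (Slc45a3 and Slc47a2), regulators of transcription and phosphorylation (Zfp423 and Ppp1r1a), proteins that act on membranes and their lipids (Synj2, Pxdc1 and Reep6) and a ubiquitin ligase (Trim16).

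The genes lie on 9 chromosomes of GRCm38 and all are annotated as protein-coding. Slc47a2 (chr11:61301631-61342860) and Trim16 (chr11:62820231-62850808) are the pair on chromosome 11. The others are Me3 at chr7:89632392-89854359, Slc45a3 at chr1:131962967-131982969, Zfp423 at chr8:87661810-87959595 and Synj2 at chr17:5941280-6044290, followed by Pxdc1 at chr13:34627834-34653486, Ppp1r1a at chr15:103530279-103538003, Reep6 at chr10:80329953-80336441 and Akr1b3 at chr6:34302434-34317478. Because the protein lost in the mutants binds GU-rich RNA, the 3′ untranslated region of each gene was searched on the sense strand for GTGTG, with overlapping matches counted. For 7 of the 10 genes at least 1 match was found, against 71.8% of 8586 expressed genes, and the share among the 10 is thus near that of all genes. The median density was 2.09 matches per kb in the 10 genes and 1.57 in all. Me3, Slc45a3 and Akr1b3 had none. The windows of 30 bases with the most matches in each of the 7 genes are shown so that the letters searched can be seen, from GENCODE M21 transcripts on GRCm38, 5′ to 3′ along the transcript, with the matches in capitals.
Zfp423, chr8:87662238-87662267, minus strand: cctgctccagctaGTGTGcttttagagttt
Trim16, chr11:62841069-62841098, plus strand: ggctttagaaactGTGTGggtcctgaatga
Synj2, chr17:6038448-6038477, plus strand: tgttcaatctGTGTGTGTGTGccatttgct
Pxdc1, chr13:34628439-34628468, minus strand: ccacttttctcttGTGTGtcaaaggcacac
Slc47a2, chr11:61301999-61302028, minus strand: ctcatgtgcctaGTGTGTGcaaggcccttg
Ppp1r1a, chr15:103530896-103530925, minus strand: gatcaccactgcaGTGTGgaaattcatgga
Reep6, chr10:80336399-80336428, plus strand: tctctcctccaagGTGTGcaataaaaccac
Synj2 has a run of 4 overlapping matches and Slc47a2 has 2, and the other 5 windows have 1 each. A match is a description of the sequence and not a binding site.

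RefSeq promoter windows of 250 bases before to 50 bases after a start site (GRCm38.p6) were found for 6 of the 10 genes, in 9 windows. They were searched on both strands for 2 E-box sequences, the motif class that Atoh1 and other basic helix-loop-helix factors bind: CAGCTG, which reads the same on both strands, and CAGATG, whose other strand reads CATCTG. Neither motif overlaps the other. CAGCTG was in 1 of the 9 windows (16.3% of all 32851) and CAGATG in 2 (17.2%), so 3 of 9 held either (30.6% of all). The windows of the genes with the 3 lowest ratios in outer hair cells are shown 5′ to 3′ on the gene's strand, with E-boxes in capitals, 1 start site each.
Me3 promoter, chr7:89632568-89632867, plus strand: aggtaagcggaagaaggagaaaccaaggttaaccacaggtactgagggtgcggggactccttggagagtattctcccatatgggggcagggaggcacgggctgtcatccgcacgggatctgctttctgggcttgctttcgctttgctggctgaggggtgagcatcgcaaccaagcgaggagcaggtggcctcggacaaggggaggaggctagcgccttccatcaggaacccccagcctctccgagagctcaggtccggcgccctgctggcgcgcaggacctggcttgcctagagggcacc
Slc45a3 promoter, chr1:131970359-131970658, plus strand: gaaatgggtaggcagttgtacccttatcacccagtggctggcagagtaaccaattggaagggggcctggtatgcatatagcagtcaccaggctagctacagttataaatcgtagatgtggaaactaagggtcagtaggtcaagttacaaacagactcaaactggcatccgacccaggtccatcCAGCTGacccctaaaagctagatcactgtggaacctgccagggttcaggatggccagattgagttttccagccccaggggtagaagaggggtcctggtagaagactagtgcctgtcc
Zfp423 promoter, chr8:87959546-87959845, minus strand: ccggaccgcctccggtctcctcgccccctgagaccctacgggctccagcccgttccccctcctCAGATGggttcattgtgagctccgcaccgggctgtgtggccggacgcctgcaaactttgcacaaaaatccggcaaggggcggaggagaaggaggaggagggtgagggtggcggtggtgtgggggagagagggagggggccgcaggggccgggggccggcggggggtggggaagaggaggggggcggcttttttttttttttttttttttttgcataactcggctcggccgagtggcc
In these windows the Slc45a3 start has 1 CAGCTG, the Zfp423 start has 1 CAGATG, and the Me3 start has neither. A second Zfp423 start has 2 matches to CATCTG, and the first Slc45a3 start has none.

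Depth and the identity of the libraries set the frame for all values. Total counts per cell ran from 5.47e+06 to 1.81e+07, and summed totals were 4.00e+08 and 7.20e+08 for control and mutant outer hair cells and 3.49e+08 and 3.65e+08 for control and mutant inner hair cells. Levels are counts per 1000000 (CPM) of counts summed over a group, with exact Poisson 95% intervals where given. Ratios carry exact conditional binomial (Clopper-Pearson) 95% intervals. The reads carry no molecular identifiers and are not independent molecules, so every interval covers counting error only and leaves out the spread between animals. Cells with Y-linked transcripts and no Xist made up 32 of 43 controls and 16 of 56 mutants among outer hair cells, and 26 of 38 controls and 7 of 26 mutants among inner hair cells, so the sexes were unequally represented in the genotypes. The predicted gene Gm15772 was under 40 CPM in 25 control and 16 mutant outer hair cells and in 23 control and 7 mutant inner hair cells, and all of these cells were among those with Y-linked transcripts. Ctrl OHC 1 had Slc26a5 at 0.156 CPM and Ocm at 7.64 CPM, and thus was low in these markers of its label. The sum of the 9 listed outer hair cell markers was at least 751.9 CPM in every Ctrl OHC and at least 543 CPM in every Ctrl IHC. OHC markers were themselves lower in the mutants, Ocm at 4951 against 18.6 CPM and Slc26a5 at 376 against 27.5 CPM in Ctrl OHC and Exp OHC.

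Rbm24 itself checked the labels. In outer hair cells it lay between 78.8 and 917 CPM in controls (median 262) and between 0 and 2.43 CPM in mutants (median 0.0905). Among inner hair cells it lay between 202 and 921 CPM in controls (median 408) and between 0 and 15.6 CPM in mutants (median 0.129). The lowest control cell stood above the highest mutant cell in both cell types. Summed levels were 315 and 0.212 CPM in outer hair cells, and 431 and 1.51 CPM in inner hair cells.

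Across the 10 genes, the mutants were lower for every gene in both cell types, and 9 of 10 were at least 8-fold lower in outer hair cells. The exception was Reep6. The share of all 8925 genes at 10 CPM or more in Ctrl OHC that were at least 8-fold lower in Exp OHC was 1.08%, or 96 genes, and the 10 genes were chosen from this end of the distribution, so nothing is read from the count. In inner hair cells 8 of 10 were at least 8-fold lower. For 2 of these 8, Me3 and Slc45a3, the Ctrl IHC level was under 10 CPM, so 6 of the 8 genes with 10 CPM or more there met the same rule as the 0.852% (75 of 8801 genes) of all genes. The median log2 ratio of mutant to control was -5.91 in outer and -3.90 in inner hair cells, against -0.023 and 0.026 for all genes at 10 CPM or more in the control group. Ranked from the lowest ratio among the 8925 genes in outer hair cells, Me3 was at place 5, Rbm24 at 10, Slc45a3 at 11, Zfp423 at 12, Ppp1r1a at 55 and Reep6 at 414. By the 8-fold rule on summed counts, the name "near lost" holds for the 9 genes in outer hair cells, although Akr1b3 was 7.77-fold lower when only cells with Y-linked transcripts were compared. It does not hold for Reep6 in outer hair cells (2.84-fold lower), nor for Zfp423 (3.49-fold) and Synj2 (4.46-fold) in inner hair cells. Nearest to 8-fold among the genes that passed it were Slc45a3 (9.68-fold), Pxdc1 (9.84-fold) and Reep6 (11.4-fold) in inner hair cells and Ppp1r1a (18.7-fold) in outer hair cells.

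**Figure D1:**
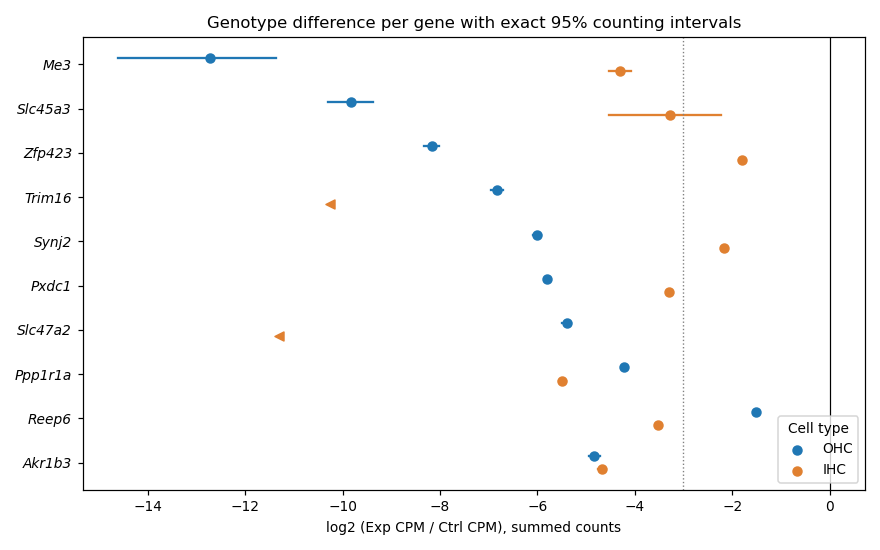
Log2 ratio of mutant to control CPM from summed counts for each gene, in outer hair cells (blue) and inner hair cells (orange). Horizontal lines are exact 95% counting intervals, triangles are upper bounds where the mutant sum was 0, and the dotted line marks 8-fold: Reep6 in outer cells and Zfp423 and Synj2 in inner cells lie to its right.

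Me3 encodes the mitochondrial NADP-dependent malic enzyme, which makes NADPH while turning malate into pyruvate. In outer hair cells it lay between 0 and 188 CPM in controls (median 21.7) and between 0 and 0.142 CPM in mutants (median 0). Among inner hair cells the range was 0 to 238 CPM in controls (median 0) and 0 to 12.9 CPM in mutants (median 0). Control outer hair cells were of 2 kinds for this gene, 24 of 43 at 10 CPM or more and the other 19 under 1 CPM, so the groups overlapped at the bottom of the range. Summed counts gave 37.7 CPM in Ctrl OHC and 0.00555 CPM (4 counts) in Exp OHC, a log2 ratio of -12.73 (-14.60 to -11.37). For inner hair cells they gave 9.69 and 0.493 CPM, a log2 ratio of -4.29 (-4.52 to -4.08), but 1 cell set each level: Ctrl IHC 12 held 56.3% of the control counts and Exp IHC 1 held 97.2% of the mutant counts. With the highest cell of each group left out, the inner hair cell ratio was -8.25 on the log2 scale. It was -1.23 in cells with Y-linked transcripts and -1.29 in cells low in Gm15772, both short of 8-fold and both with the same 7 mutant cells. The cell medians, both 0, show no difference. Exp IHC 1 was also the mutant cell with the most Rbm24, 15.6 CPM.

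Akr1b3 is aldose reductase, which reduces glucose to sorbitol in the first step of the polyol pathway. Levels ran from 0 to 173 CPM in Ctrl OHC (median 0.0880) and from 0 to 39.8 CPM in Exp OHC (median 0). Levels ran from 0 to 434 CPM in Ctrl IHC (median 75.7) and from 0 to 35.7 CPM in Exp IHC (median 0). It was present at 10 CPM or more in 17 of 43 Ctrl OHCs and 31 of 38 Ctrl IHCs, and in 1 of 56 Exp OHCs and 4 of 26 Exp IHCs. The groups thus overlapped in outer hair cells through control cells that lack it and through that 1 mutant cell. In inner hair cells they overlapped at the low end. The summed levels were 25.3 and 0.890 CPM in outer hair cells (log2 ratio -4.83, -4.95 to -4.71) and 92.1 and 3.62 CPM in inner hair cells (log2 ratio -4.67, -4.75 to -4.59). A single cell, Exp OHC 13, held 98.8% of the Exp OHC counts, and with the top cell of each group left out the outer hair cell ratio was -10.89. Among cells with Y-linked transcripts it was -2.96, just short of 8-fold, and from the cell medians with 1 CPM added it was -0.12.

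The other genes of these pathways were compared with members that were chosen for their fall. The first list held malic enzymes, malate dehydrogenases and enzymes of NADPH supply. Of its 8 genes at 10 CPM or more in Ctrl OHC, none was 8-fold lower in Exp OHC and 2 were at least 2-fold lower. The cytosolic malic enzyme Me1 was at 439 and 298 CPM in Ctrl OHC and Exp OHC, and the other mitochondrial malic enzyme, Me2, at 86.6 and 124 CPM. The pair at least 2-fold lower were G6pdx, the first enzyme of the pentose phosphate pathway, at 124 and 56.7 CPM, and the mitochondrial isocitrate dehydrogenase Idh2, at 12.8 and 6.32 CPM. Of 5 genes of the polyol pathway and the aldo-keto reductases at 10 CPM or more, all were within 2-fold in outer hair cells, including Akr1b10 at 15.0 and 16.2 CPM and sorbitol dehydrogenase (Sord), the next enzyme of the polyol pathway, at 14.8 and 8.14 CPM. Among inner hair cells 4 of 5 were within 2-fold, and Khk, which phosphorylates fructose, the end product of the polyol pathway, was at 18.2 and 4.63 CPM.

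Slc45a3 belongs to the SLC45 family of sugar transporters and is also known as prostein. It lay between 0 and 208 CPM in Ctrl OHC (median 37.4) and between 0 and 1.26 CPM in Exp OHC (median 0). Inner hair cells held almost none of it in either group, with 6.69 CPM as the highest control cell and 0.315 CPM as the highest mutant cell (both medians 0). No mutant outer hair cell of 56 reached 10 CPM (by the rule of 3 cells of the total, a share of up to 5.36%, for counting error only), against 29 of 43 controls, and the groups overlapped only where control cells had little or none. Summed levels were 52.7 and 0.0583 CPM in outer hair cells, a log2 ratio of -9.82 (-10.29 to -9.38). The inner hair cell levels were 0.212 and 0.0219 CPM, and Ctrl IHC 11 held 77.0% of those control counts. Leaving out the top cell of each group moved that log2 ratio from -3.28 to -2.54, and it was -1.18 in cells with Y-linked transcripts, both under 8-fold.

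Slc47a2 encodes a multidrug and toxin extrusion transporter, which moves organic cations out of cells in exchange for protons. Cells ranged from 0 to 179 CPM in Ctrl OHC (median 47.2) and from 0 to 31.9 CPM in Exp OHC (median 0). Cells ranged from 0 to 97.8 CPM in Ctrl IHC (median 10.1), and all 26 Exp IHCs were at 0 counts. It was present at 10 CPM or more in 34 of 43 Ctrl OHCs and 2 of 56 Exp OHCs, and in 19 of 38 Ctrl IHCs, and the outer groups overlapped in their lower range. The summed levels were 56.8 and 1.35 CPM in outer hair cells, a log2 ratio of -5.40 (-5.49 to -5.30), and -6.00 without the top cell of each group, of which Exp OHC 38 held 37.9% of the mutant counts. Among inner hair cells 20.8 CPM stood against 0 counts, which is at least 2530-fold lower with a floor of 3 counts over the group.

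Of 4 listed relatives of these transporters, 1 was at 10 CPM or more in Ctrl OHC. Slc47a1, which encodes the paralogous extrusion transporter, was at 7.53 CPM in Ctrl OHC and 0.00278 CPM (2 counts) in Exp OHC, a log2 ratio of -11.41 (-14.45 to -9.55). Slc45a4 was at 44.5 and 21.3 CPM in outer hair cells and 41.7 and 25.2 CPM in inner hair cells.

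Zfp423 is a zinc finger transcription factor that binds EBF factors and SMAD proteins of the BMP pathway. Control outer hair cells ranged from 0 to 712 CPM (median 75.4) and mutant outer hair cells from 0 to 22.9 CPM (median 0). Control inner hair cells ranged from 0 to 117 CPM (median 4.13) and mutant inner hair cells from 0 to 49.1 CPM (median 0.0332). At 10 CPM or more it was in 32 of 43 Ctrl OHCs and 1 of 56 Exp OHCs, and among inner hair cells in 17 of 38 controls and 5 of 26 mutants, so the inner hair cell groups overlapped over most of their range. Summed levels were 129 and 0.447 CPM in outer hair cells (log2 ratio -8.17, -8.33 to -8.01) and 22.1 and 6.34 CPM in inner hair cells (log2 ratio -1.80, -1.87 to -1.73). Exp OHC 12 alone held 89.8% of the Exp OHC counts, and the ratio without the top cell of each group was -11.34. The EBF factors Ebf1 and Ebf4 were higher in the mutants, Ebf1 at 118 and 233 CPM and Ebf4 at 5.21 and 13.5 CPM in Ctrl OHC and Exp OHC. Smad4 was at 32.6 and 36.5 CPM, and all 4 relatives and partners at 10 CPM or more in Ctrl OHC were within 2-fold.

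Ppp1r1a encodes inhibitor-1, which blocks protein phosphatase 1 once protein kinase A has phosphorylated it. Outer hair cells ranged from 0 to 286 CPM in controls (median 122) and from 0 to 48.6 CPM in mutants (median 0). Inner hair cells ranged from 52.5 to 412 CPM in controls (median 153) and from 0 to 46.4 CPM in mutants (median 0). In inner hair cells the groups did not overlap, the highest mutant cell lying under the lowest control cell, whereas in outer hair cells the 10 of 56 mutant cells at 10 CPM or more lay between 21.0 and 48.6 CPM, within the range of the controls. The summed levels were 114 and 6.11 CPM in outer hair cells (log2 ratio -4.22, -4.27 to -4.18) and 164 and 3.66 CPM in inner hair cells (log2 ratio -5.49, -5.57 to -5.41). Exp IHC 24 held 49.0% of the Exp IHC counts, and without the top cell of each group the inner hair cell ratio was -6.35.

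Among the 10 other genes of protein phosphatase 1 and its inhibitors at 10 CPM or more in Ctrl OHC, none was 8-fold lower. The catalytic subunit Ppp1cb was at 2125 and 794 CPM in Ctrl OHC and Exp OHC, the only one of the 10 at least 2-fold lower. The inhibitor Ppp1r14a was at 40.5 and 234 CPM, thus higher in the mutants, and Ppp1r11 at 42.2 and 88.6 CPM. Ppp1r1b, the close relative known as DARPP-32, had no counts.

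Synj2 encodes synaptojanin 2, a phosphoinositide 5-phosphatase, and mice with a mutation in it lose hearing progressively. Cells ranged from 0.120 to 383 CPM in Ctrl OHC (median 132) and from 0 to 81.6 CPM in Exp OHC (median 0). Inner hair cells ranged from 80.9 to 568 CPM in controls (median 257) and from 0 to 210 CPM in mutants (median 48.6). At 10 CPM or more were 2 of 56 Exp OHCs and 19 of 26 Exp IHCs, and the ranges of mutants and controls overlapped in both cell types. Summed levels were 132 and 2.05 CPM in outer hair cells (log2 ratio -6.01, -6.08 to -5.93) and 270 and 60.5 CPM in inner hair cells (log2 ratio -2.16, -2.18 to -2.14). Exp OHC 46 held 89.2% of the Exp OHC counts, and the ratio without the top cell of each group was -9.11. Its paralog Synj1 was at 60.3 and 62.0 CPM in outer hair cells. Of 13 phosphoinositide 5-phosphatases and endocytic partners at 10 CPM or more there, 12 were within 2-fold, and Inpp5j, at 14.1 and 35.4 CPM, was higher in the mutants.

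Pxdc1 encodes a protein with a PX domain, a fold that binds phosphoinositides. Outer hair cells ranged from 0.468 to 600 CPM in controls (median 262) and from 0 to 93.8 CPM in mutants (median 0). Inner hair cells ranged from 87.5 to 1004 CPM in controls (median 353) and from 0.301 to 226 CPM in mutants (median 10.2). Nearly every control cell was at 10 CPM or more, 42 of 43 Ctrl OHCs and 38 of 38 Ctrl IHCs, against 3 of 56 Exp OHCs and 14 of 26 Exp IHCs. Every mutant inner hair cell had counts of Pxdc1, while 40 of 56 mutant outer hair cells had none, and both pairs of groups overlapped. Summed levels were 268 and 4.80 CPM in outer hair cells (log2 ratio -5.80, -5.85 to -5.75) and 400 and 40.6 CPM in inner hair cells (log2 ratio -3.30, -3.32 to -3.27). Without the top cell of each group, Exp OHC 12 among the mutants, the outer hair cell ratio was -6.35. For inner hair cells with Y-linked transcripts the ratio was -2.25, under 8-fold.

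Reep6 encodes a protein that shapes the endoplasmic reticulum and is known for its need in rod photoreceptors. Outer hair cells ranged from 0 to 342 CPM in controls (median 42.1) and from 0 to 282 CPM in mutants (median 0.0918). Inner hair cells ranged from 90.8 to 851 CPM in controls (median 360) and from 0 to 208 CPM in mutants (median 0.136). In outer hair cells the groups overlapped over their whole range, with 26 of 43 control and 20 of 56 mutant cells at 10 CPM or more. Of inner hair cells, 38 of 38 control and 10 of 26 mutant cells were at 10 CPM or more, and the ranges met between 90.8 and 208 CPM. The summed levels were 66.7 and 23.5 CPM in outer hair cells (log2 ratio -1.50, -1.53 to -1.48) and 385 and 33.7 CPM in inner hair cells (log2 ratio -3.51, -3.54 to -3.49). Among inner hair cells with Xist the ratio was -2.87, under 8-fold. Among outer hair cells low in Gm15772, Reep6 was at 32.8 CPM in 25 controls and 28.6 CPM in 16 mutants, whereas among those high in it the levels were 123 and 21.1 CPM in 18 and 40 cells. Its log2 ratio was -0.82 in outer hair cells with Y-linked transcripts and -3.15 in those with Xist. The 16 mutant cells low in Gm15772 were the 16 with Y-linked transcripts. The outer hair cell difference in Reep6 thus moved with both splits, which overlap, and the part of either in it was not tested. Of the REEP family, all 3 genes at 10 CPM or more in Ctrl OHC were within 2-fold, and Reep2 had no counts there and 11.8 CPM in Exp OHC. Reep5, the closest relative, was at 538 and 610 CPM in outer hair cells and 201 and 371 CPM in inner hair cells.

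Trim16 is a ubiquitin ligase of the tripartite motif family that acts with galectins in the autophagy of damaged membranes. Outer hair cells ranged from 0 to 310 CPM in controls (median 51.3) and from 0 to 37.7 CPM in mutants (median 0). Inner hair cells ranged from 0 to 176 CPM in controls (median 0.0877), and all 26 mutant cells were at 0 counts. At 10 CPM or more were 29 of 43 Ctrl OHCs, 6 of 38 Ctrl IHCs and 1 of 56 Exp OHCs, and that 1 cell, Exp OHC 12, held 99.2% of the Exp OHC counts, so the outer groups overlapped through 1 mutant cell and the low control cells. Summed levels were 75.7 and 0.668 CPM in outer hair cells, a log2 ratio of -6.83 (-6.96 to -6.70), and -13.62 without the top cell of each group. For inner hair cells 10.0 CPM stood against 0 counts, at least 1216-fold lower, and Ctrl IHC 12 held 40.3% of those control counts (log2 bound -10.25, and -9.48 without it). All 8 partners of Trim16 in damaged membrane autophagy at 10 CPM or more in Ctrl OHC were within 2-fold, among them the autophagy receptor Sqstm1 at 170 and 187 CPM and Tfeb, a transcription factor of lysosomal genes, at 12.2 and 21.0 CPM.

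**Figure D2:**
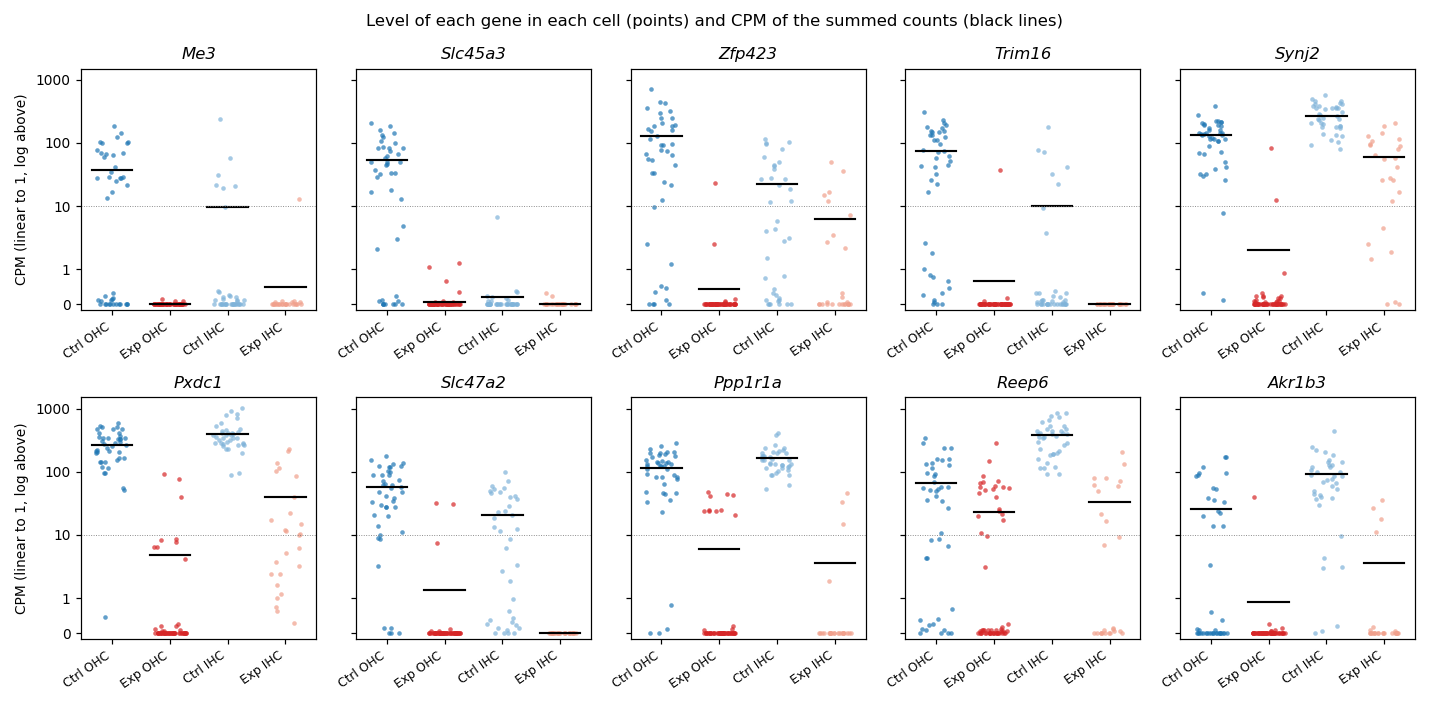
CPM of each of the 10 genes in every cell (points, with horizontal jitter) of the 4 groups, on an axis that is linear up to 1 CPM and logarithmic above, with the CPM of summed counts as black lines and 10 CPM dotted. At least 46 of 56 mutant outer hair cells lie under 10 CPM for each gene but Reep6, which spreads up to 282 CPM, and mutant inner hair cells keep Synj2 and Pxdc1 in 19 and 14 of 26 cells.

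The family and partner genes, listed with earlier results of these data known, were used as a comparison. Of 73 such genes, 52 were at 10 CPM or more in Ctrl OHC. Relatives under that level are not counted here. Among them, Slc47a1, given above, and the 5-phosphatase gene Inpp5d, at 1.83 and 0.00694 CPM (5 counts), were over 8-fold lower in Exp OHC. Reep2, also left out, was higher there. None of the 52 was at least 8-fold lower in Exp OHC, 4 were at least 2-fold lower, 3 at least 2-fold higher and 45 within 2-fold, with a median log2 ratio of -0.018. Among 51 genes at that level in Ctrl IHC, none was 8-fold lower, 3 were 2-fold lower, 1 was higher and 47 were within 2-fold. The same 8-fold rule held for 1.08% and 0.852% of all genes, so a count of 0 among the relatives is near the background. The 2-fold shares over all genes were not computed, so nothing is read from the 2-fold counts.

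**Figure D3:**
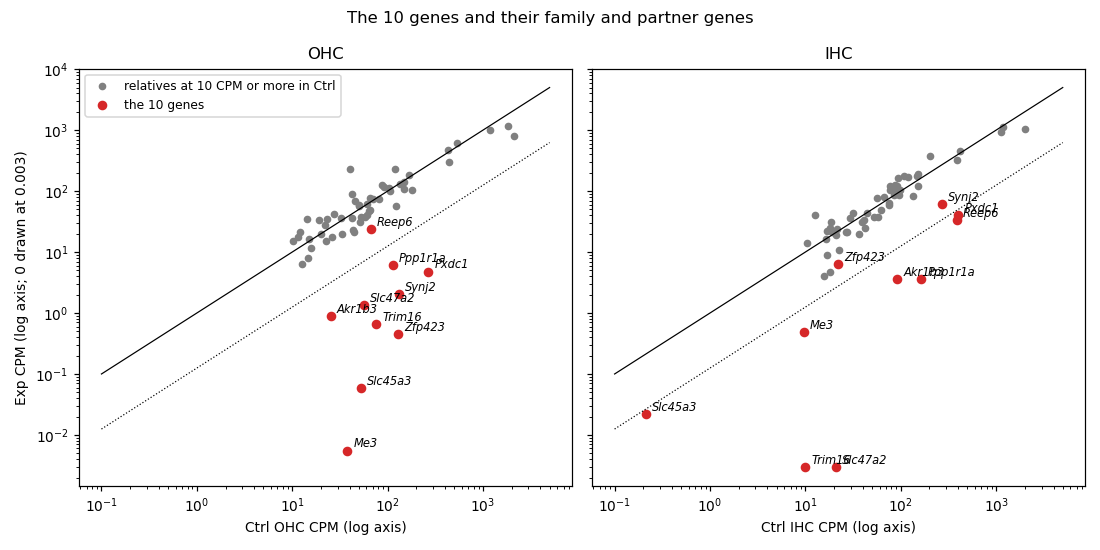
Mutant against control CPM (log axes) for the 10 genes (red) and their family and partner genes at 10 CPM or more in controls (grey), in outer and inner hair cells, with equality as a solid line and 8-fold lower as a dotted line. The grey genes lie about the solid line, and none lies below the dotted one.

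Genomic neighbours were examined in the same way. Within 200 kb of 1 of the 10 genes, 36 genes were at 10 CPM or more in Ctrl OHC. 1 of them was at least 8-fold lower in Exp OHC, namely Mfsd4a near Slc45a3 (37.9 against 2.89 CPM), and 6 were at least 2-fold lower. In inner hair cells 1 of 35 was at least 8-fold lower, Prss23 near Me3, at 17.0 against 0.00822 CPM. Overlapping annotated genes share exons with 5 of the 10, and the strand setting of the authors' counting is not given in the sources used here. Fbxw10, on the same strand as Trim16, was at 3.22 CPM in Ctrl OHC and 0 in Exp OHC. Serac1, opposite Synj2, was at 5.84 and 0.800 CPM. Reads of these pairs cannot be told apart in the shared exons.

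Among control cells, the 10 genes divided into 5 higher in outer hair cells, 3 higher in inner hair cells and 2 within 2-fold. Me3, Slc45a3, Zfp423, Trim16 and Slc47a2 were at least 2-fold higher in Ctrl OHC than in Ctrl IHC, 5 of 10 genes, against 10.6% of 9603 genes at 10 CPM or more in either group. Slc45a3 differed most, at 52.7 against 0.212 CPM, a log2 difference of 7.96 (7.63 to 8.30). Synj2, Reep6 and Akr1b3 were at least 2-fold higher in Ctrl IHC, 3 of 10, against 8.04% of all genes, and Reep6 was 5.77-fold higher there. Pxdc1 and Ppp1r1a were within 2-fold. The rule used the mutants' fall and not this contrast, but it used the control levels of each group. The genotype log2 ratio in outer minus that in inner hair cells was -8.43 for Me3, -6.54 for Slc45a3, -6.37 for Zfp423, 3.42 for Trim16 and 5.91 for Slc47a2, the 5 genes higher in Ctrl OHC. For the 3 genes higher in Ctrl IHC it was -3.85 for Synj2, 2.01 for Reep6 and -0.16 for Akr1b3, so both signs occurred in both sets, and the values of Trim16 and Slc47a2 rest on the floor of 3 counts in inner hair cells. These differences between cell types were not tested.

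Compared per kilobase of annotated exon, Pxdc1 and Ppp1r1a were the most abundant of the 10 in Ctrl OHC, at 92.0 and 87.3 CPM per kb, beside Rbm24 at 90.1. Me3 (2.58) and Akr1b3 (3.02) had the lowest values, and the other 6 lay between 14.8 and 26.6 CPM per kb. The annotated exons of Me3 and Akr1b3 cover 14624 and 8384 bases, against 4485 and 1387 bases in the coding transcripts searched above. Their low values thus depend on the length used and give no order of abundance. In Ctrl IHC, Reep6 was highest at 153 CPM per kb, followed by Pxdc1 at 137 and Ppp1r1a at 126, while Slc45a3 was lowest at 0.0596.

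The level of Rbm24 in control cells was set against that of each gene in the same cell. Spearman's rho across the 43 Ctrl OHCs ranged from -0.37 for Zfp423 to 0.18 for Reep6, with a median of -0.15 over the 10 genes. For 8914 genes at 10 CPM or more the median was 0.034. In the 38 Ctrl IHCs rho ranged from -0.21 for Slc47a2 to 0.45 for Pxdc1, with a median of -0.027, against a median of 0.00045 over 8792 genes. Only Pxdc1 (0.45) and Trim16 (0.34) were above 0.3 in inner hair cells. The level of Rbm24 itself ranged from 78.8 to 917 CPM over these Ctrl OHCs. Points in each correlation share the library, its depth and its composition, and weak correlations in counts with many 0 values are no finding.

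Across the same Ctrl OHCs, the levels of the genes were also set against markers of outer hair cells. The rank correlation with Ocm was positive for 8 of 10 genes, with a median of 0.36, beside a median of -0.040 over all genes. It was highest for Zfp423 (0.70) and lowest for Reep6 (-0.54) and Pxdc1 (-0.30). For Pxdc1 the sign depended on the measure, since Pearson's r of log2(CPM + 1) with Ocm was 0.25. The median rho was 0.38 with Slc26a5 and 0.33 with Ikzf2, a transcription factor of outer hair cells. It was -0.22 with Gm15772, 0.095 with the summed supporting cell markers and 0.027 with total counts. In Ctrl IHCs the medians with Ocm, Slc26a5 and Ikzf2 were 0.017, -0.051 and 0.0016. Ocm and Slc26a5 were themselves low in Exp OHC, as given above, and their part in the differences was not tested.

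**Figure D4:**
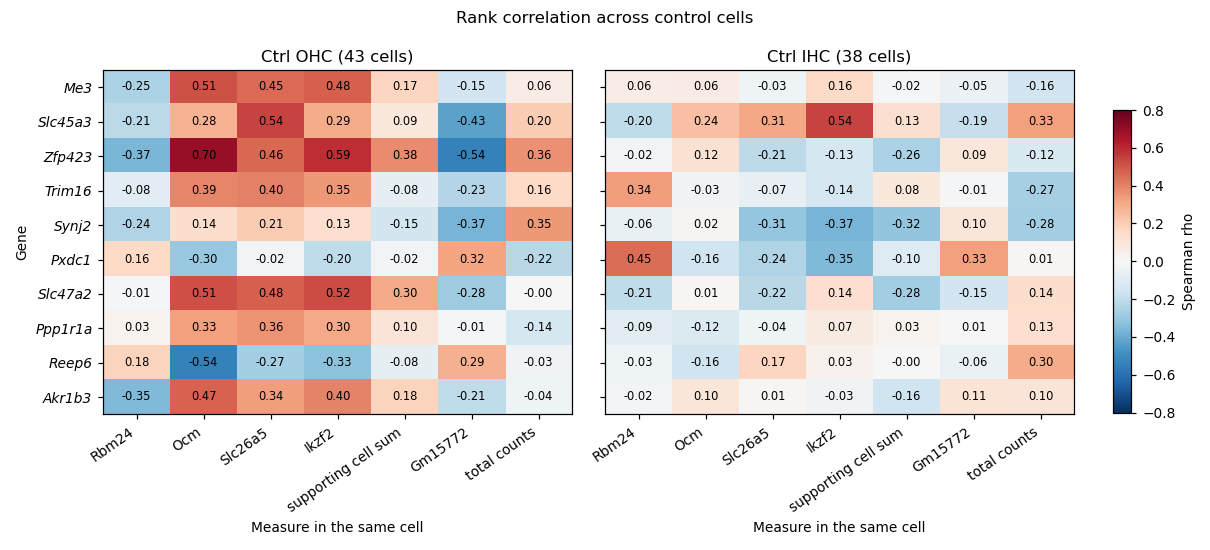
Spearman's rho of each gene (rows) with Rbm24, Ocm, Slc26a5, Ikzf2, the sum of 10 supporting cell markers, Gm15772 and total counts across Ctrl OHC (left, 43 cells) and Ctrl IHC (right, 38 cells). In outer hair cells the columns of Ocm, Slc26a5 and Ikzf2 are mostly red, with Zfp423 and Ocm at 0.70. Reep6 is blue in all of them, and Pxdc1 is blue for Ocm (-0.30) and Ikzf2 (-0.20) but pale for Slc26a5 (-0.02). The Rbm24 column is mostly blue.

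The genes were also set against each other. Of 45 pairs, 34 had a positive rho in Ctrl OHC (median 0.15) and 7 were at 0.4 or more. Me3 and Slc47a2 (0.59), Me3 and Zfp423 (0.51) and Me3 and Slc45a3 (0.51) were highest, and Zfp423 and Pxdc1 lowest at -0.41. In Ctrl IHC 26 of 45 were positive (median 0.052), from -0.49 for Me3 and Pxdc1 to 0.47 for Zfp423 and Slc47a2. The same counts for pairs of other genes were not computed, so nothing is read from these counts. By the mean log2(CPM + 1) of the 10 genes as a score, the most similar genes outside the list across the 43 Ctrl OHCs were Sh2d6 (rho 0.70), Aqp11 (0.67), Eno1 (0.67), Lgmn (0.66) and Bhlhe40 (0.66). Aqp11 was at 966 CPM in Ctrl OHC and 118 in Exp OHC, and Sh2d6 at 147 and 22.7. Eno1 was at 356 and 314 CPM, and its reads may be split with near-identical copies. Across the 38 Ctrl IHCs they were Dlk2 (0.58), Ctr9 (0.58), Zswim8 (0.58), Nfe2l1 (0.55) and Pnisr (0.55), none of which was 2-fold lower in Exp IHC.

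Single cells were then counted by how many of the 10 genes they held at 10 CPM or more. Control outer hair cells held 1 to 10 (median 8) and mutant outer hair cells 0 to 3 (median 1). Control inner hair cells held 4 to 8 (median 6) and mutant inner hair cells 0 to 4 (median 2). In inner hair cells the groups met only at 4 genes, which 2 control cells and 1 mutant cell held. Of 56 Exp OHCs, 26 held none (46.4%), 22 held 1, 6 held 2 and 2 held 3. Reep6, to which the name "near lost" does not apply in outer hair cells, was held by 20 of the 56. Ppp1r1a was held by 10, and each of the other genes by at most 3. Of 26 Exp IHCs, 1 held none, 3 held 1, 14 held 2, 7 held 3 and 1 held 4. Loss was thus seldom complete in an inner hair cell, where Synj2 or Pxdc1 was most often the gene that stayed. Ctrl OHC 1, the control outer hair cell low in both Slc26a5 and Ocm, was the one that held 1 gene.

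**Figure D5:**
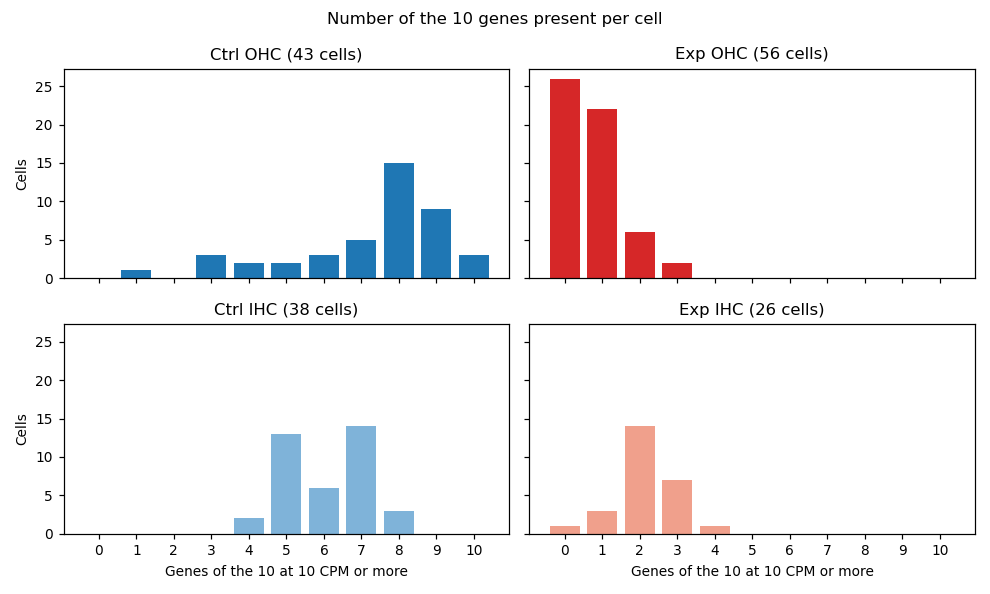
Number of cells (vertical axis) by how many of the 10 genes they held at 10 CPM or more (horizontal axis), for the 4 groups. Control cells centre on 8 (outer) and 6 (inner) genes and mutant cells on 1 and 2, and the inner groups meet only at 4 genes.

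Pairs of genes held by the same mutant cell were counted beside the cells that held each gene, and no test was run on them. Among Exp OHCs, 8 held at least 2, and Ppp1r1a (held by 10 of 56 cells) and Reep6 (held by 20) were the pair in 5 of these. Exp OHC 12 held Zfp423, Trim16 and Pxdc1 at once, with Rbm24 at 0 counts and Ocm at 26.4 CPM. Exp OHC 38 held Slc47a2, Ppp1r1a and Reep6. Among Exp IHCs, Synj2 was held by 19 cells, Pxdc1 by 14, Reep6 by 10 and Zfp423 by 5. Synj2 and Pxdc1 were together in 11 cells, Synj2 and Reep6 in 7, and Zfp423 and Reep6 in 4. Of the cells that held at least 1 gene, 13 of 30 Exp OHCs and 10 of 25 Exp IHCs had no Rbm24 count, against 20 of 56 and 10 of 26 among all mutant cells. Across Exp OHCs, rho of the number held was -0.26 with Rbm24, 0.35 with Ikzf2, 0.19 with Slc26a5 and 0.22 with total counts. Across Ctrl OHCs it was -0.26 with Rbm24, 0.44 with Ikzf2, 0.57 with Slc26a5 and 0.077 with total counts. In Exp OHC, Rbm24 ranged only from 0 to 2.43 CPM. The 16 Exp OHCs low in Gm15772, all with Y-linked transcripts, more often held a gene and more often had no Rbm24 count than the other Exp OHCs. The relation of the number held to Rbm24 in mutants cannot be told apart from that split, and its part was not tested.

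Supporting cells are the neighbours that a picked hair cell could carry along. The summed level of their 10 markers ranged from 0 to 409 CPM in Ctrl OHC (median 13.4), 0 to 330 in Exp OHC (median 0.361), 0 to 1086 in Ctrl IHC (median 0.957) and 0 to 58.7 in Exp IHC (median 9.66). Single markers went both ways. Sox2 was at 5.47 and 6.47 CPM in Ctrl OHC and Exp OHC and at 11.2 and 14.9 CPM in Ctrl IHC and Exp IHC, and Prox1 at 1.44 and 3.70 CPM in Ctrl OHC and Exp OHC. Otog was at 19.8 CPM in Ctrl OHC and 0 in Exp OHC, and Gjb2 at 29.9 and 0.00548 CPM in Ctrl IHC and Exp IHC. 2 of 10 markers were at 0 in Exp OHC (Gjb6 and Otog) and 5 of 10 in Exp IHC (Sox10, Slc1a3, Gjb6, Otog and Tecta). With only the cells under 50 CPM of these markers, a limit chosen after seeing the data, the counts of genes at least 8-fold lower were again 9 and 8, and the median log2 ratios were -6.33 and -3.95. The C1qb immune marker was at 109 and 267 CPM in Ctrl OHC and Exp OHC while C1qa and Cx3cr1 had no counts in these groups, and its part in the differences was not tested.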

How the data were processed

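The authors deposited raw read counts per gene and cell from full-length single-cell libraries. Per the submitters' processing notes, the tools were featureCounts 2.0.1, HISAT2 2.2.1 and SAMtools, and the build was mm10. Not given in the sources used here are the annotation release, how strand was set and how reads matching several genes were counted. Symbols were matched for 55034 of 55291 identifiers (99.5%). A group's CPM is the sum of a gene's counts over its cells, scaled to the summed total of those cells. Where 1 sum was 0, a floor of 3 counts over the group was used. The ratio and interval code was tested on simulated data with known fold changes. Named genes were the 10 genes, Rbm24, the list genes at 10 CPM or more in 1 of the 4 groups with the largest absolute log2 ratio in outer hair cells (1 to 4 a list), genes that overlap a member, and the 5 genes most similar to the 10 by rank correlation in each control group. Close relatives (Me1, Me2, Akr1b10, Smad4, Sqstm1, Synj1, Inpp5d, Ppp1r1b, Reep5 and Slc47a1), neighbours (Mfsd4a and Prss23) and other cell type markers beyond that rule were chosen after their values were seen. The 10 genes, the lists, the motifs and the cuts were chosen with earlier results of these data known. Alternatives were edgeR 4.0.16 TMM and DESeq2 1.42.0 size factors, averages over cells, subsets of cells, other limits for a gene being present and cells thinned to 5000000 counts. Scripts ran in Python with pandas 2.3.3, numpy 2.4.6, scipy 1.17.1 and matplotlib 3.10.9, and in R 4.3.3.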

Additional observations from a re-analysis of the deposited data

How the results depend on the processing

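Under 210 alternative values of the members' ratios, none changed sign, and 208 were lower in mutants, the exceptions being 0 for Me3 and Slc45a3 in inner hair cells from medians over cells. The genes were chosen for their fall in these same cells, so the shared sign is a description and no test. For Reep6 in outer hair cells low in Gm15772 the log2 ratio was only -0.20. The number at least 8-fold lower in outer hair cells was 8 (cells with Y-linked transcripts) to 10 (cells with Xist). In inner hair cells the number at least 8-fold lower went from 8 to 5 with only cells with Y-linked transcripts. It was also 5 with only cells low in Gm15772, but the 7 mutant cells are the same in these settings. With medians over cells it was 5. With genes at 1 CPM or more, 5.99% of all genes in outer and 7.29% in inner hair cells were at least 8-fold lower. At a limit of 50 CPM, 15 of 56 Exp OHCs held a member. The median rho with Rbm24 in Ctrl IHC was 0.059 in the 15 cells high in Gm15772. The causes were not tested. Leaving out the top cell per group for each gene gave a median log2 ratio of -9.73 in outer hair cells. No paired analysis was possible because cell numbers only name cells. The floor of 3 counts over a group is 0.00416 to 0.00861 CPM. Each group is 1 sample, the sexes and Gm15772 sets are unequal between genotypes, and Cre and the second Atoh1 allele go with the mutants.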
